A study of Homo sapiens with 2 samples.

Results

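Contacts of the RNA-binding protein Musashi-2 (MSI2) with the transcripts of 8 protein-folding genes were read from CLIP-seq peak lists of NB4 cells, a cell line established from human acute promyelocytic leukaemia. In CLIP-seq, RNA crosslinked to a protein by ultraviolet light is recovered with an antibody and sequenced. The genes are HSPA8 and HSPA9 (HSP70 class), HSPA4 and HSPH1 (HSP110 class), DNAJA1 and DNAJB1 (HSP40 class), HSPD1 (HSP60) and HSPE1, the partner of HSPD1. Their peaks were taken by Ensembl gene ID, which gave 64 of the 25920 peaks of replicate 1 and 72 of the 25243 peaks of replicate 2. All 8 genes, of 8801 gene IDs seen in either library, carried peaks in both, as did 63.1% of all gene IDs. The only group was unmodified NB4 cells in culture, with 2 replicate libraries, both labelled with equal cell numbers, crosslinking at 400 mJ/cm2 and the same anti-MSI2 antibody. Libraries of input RNA, of a control antibody or of cells without MSI2 were not analysed here, so a peak found in both libraries cannot be told apart from repeatable background. The labels do not say that the replicates came from separate cultures, and as each is 1 library of 1 line, no test between them was made.

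HSP70 chaperones hold unfolded stretches of protein in cycles of ATP binding and hydrolysis. HSP40 proteins deliver clients and speed hydrolysis, HSP110 proteins exchange the nucleotide so that the client is let go, and HSP60 with its lid HSP10 encloses a client in a folding chamber of the mitochondrial matrix. Musashi proteins bind short RNA motifs with a UAG core, mostly described in 3' untranslated regions, and are known for control of translation and stability of messenger RNA in blood and neural stem cells. The genome sequence of the files' build was not used here, so the bases under the peaks are not shown and no motif was searched.

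Each listed peak has a position on genome build hg19, a strand, a p-value given by the authors, and a name ending in a whole number that was 3 or more. This number, called the tally, is read here as if it counted reads, which neither the files nor the labels state. It depends on how abundant and how long a transcript is, neither of which was corrected for, so summed tallies are not ranked between genes. A peak was called shared when a peak of the other library lay on the same strand and overlapped it by at least 1 nt. The lists held summed tallies of 155598 in replicate 1 and 133644 in replicate 2. The total number of reads is not given in the files, so depth is unknown.

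Many chaperone peaks overlapped one in the other library. Of their peaks, 37 of 64 in replicate 1, or 57.8% (95% exact binomial interval 44.8% to 70.1%), and 38 of 72 in replicate 2, or 52.8% (40.7% to 64.7%), were shared, against 35.7% and 37.3% over all peaks of the lists. With an overlap of at least 50% of both peaks required, the shares were 32.8% and 29.2%, against 26.8% and 27.5% over all peaks. The intervals cover counting error only, as peaks of one gene are not independent. The chaperone peaks were also stronger: tallies of 10 or more made up 32.8% of them in replicate 1 and 20.8% in replicate 2, against 13.2% and 9.53% of all peaks. Strong peaks are found again more often, so the count was set beside the one that peaks of other genes with like tallies would give. Low tallies were matched singly and higher ones in ranges, the top range open-ended. That count was 35.99 of 64 in replicate 1 and 34.9 of 72 in replicate 2, close to the 37 and 38 observed. The higher share is therefore not read as a result about chaperone genes. In replicate 2 the tally classes went both ways. The shares were 38.5% against 24.6% of all peaks at tallies of 3 to 5, and 55.6% against 64.9% at 6 to 9. At 10 or more they were 86.7% against 89.4%.

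**Figure D1:**
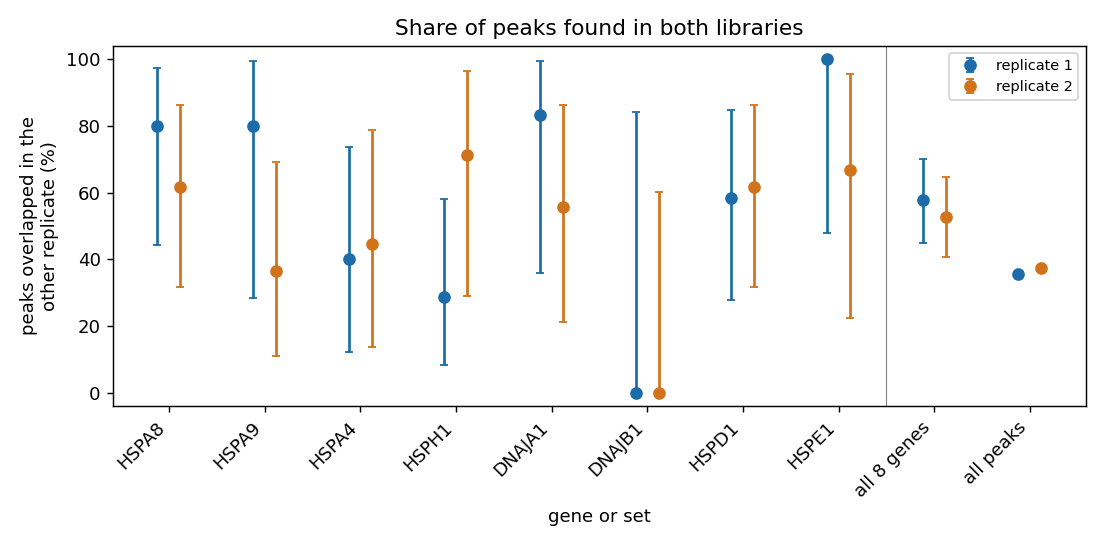
Share of peaks (%, vertical axis) overlapped by a peak of the other library, for each gene, for the 8 genes together and for all peaks of the list; points are replicate 1 (blue) and replicate 2 (orange), and bars are 95% exact binomial intervals. The 8 genes together lie at 57.8% and 52.8%, against 35.7% and 37.3% for all peaks, and DNAJB1 lies at 0 in both.

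Joining overlapping peaks gave 97 separate sites over the 8 genes, of which 35 held peaks of both libraries, 28 of replicate 1 alone and 34 of replicate 2 alone. Joined sites were not counted over all genes, so these numbers describe the 8 genes and have no share of the lists beside them. Sites common to the libraries numbered 7 in HSPA8, 4 in HSPA9, 4 in HSPA4, 4 in HSPH1, 5 in DNAJA1, 7 in HSPD1 and 4 in HSPE1, and DNAJB1 had 0. With at least 1 shared peak in 7 of 8 genes, the set stood beside 45.5% of all gene IDs. That figure includes many IDs with a single peak. Among the 1254 gene IDs with 5 or more peaks in both libraries, which include 7 of the 8 chaperone genes, the median share of shared peaks was 45% in replicate 1 and 50% in replicate 2. The medians over the 8 genes, with DNAJB1 and its fewer peaks included, were 69.2% and 58.5%. The interquartile ranges over the 1254 gene IDs were 30% to 60% in replicate 1 and 33.3% to 62.5% in replicate 2. These shares were not matched for tally, so they do not show that chaperone genes recur more than like genes.

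**Figure D2:**
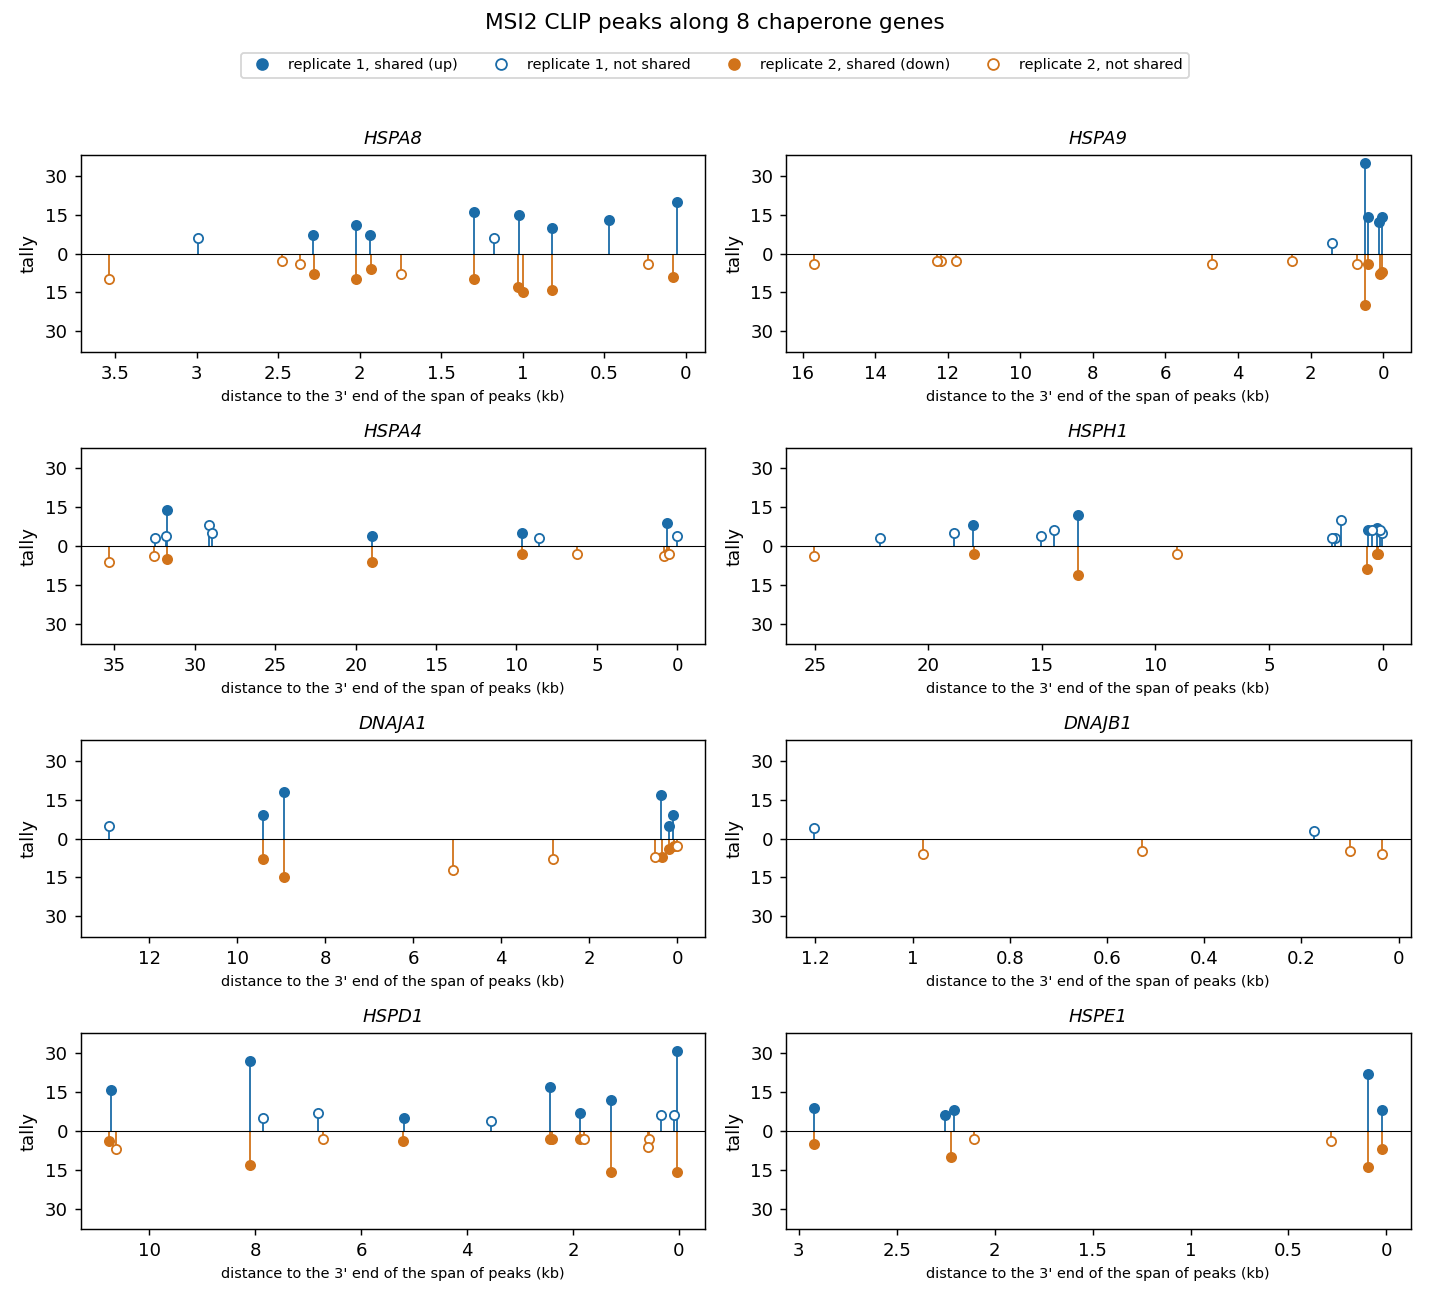
Peaks along each gene, with the distance from the peak's midpoint to the 3' end of the gene's span of peaks on the horizontal axis (kb, 5' to the left) and the tally on the vertical axis, upward for replicate 1 (blue) and downward for replicate 2 (orange). Filled points are shared peaks and open points are not; HSPA9 has its shared peaks at the right edge alone, while those of HSPD1 run over its whole 10.8 kb.

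HSPA8, the constitutive cytosolic HSP70 (HSC70), had peaks along all of a short span of 3.58 kb, from 122928349 to 122931924 on the minus strand of chromosome 11 under ENSG00000109971.9. Replicate 1 listed 10 peaks with a summed tally of 111 and replicate 2 listed 13 with 114, and 8 peaks of each library were shared. It was the member whose sums were closest in number. At 122929339 to 122929402, replicate 1 had a single peak with a tally of 15. Replicate 2 divided the same stretch into touching peaks with tallies of 15 and 13, which began and ended at the same bases. At the 3' end of the span a peak at 122928349 to 122928456 had a tally of 20 in replicate 1, and its replicate 2 partner at 122928406 to 122928451 had 9. A peak at 122929616 to 122929675 had a tally of 16, and its partner at 122929632 to 122929665 had 10. In the other direction, a peak at 122929151 to 122929183 had 10 in replicate 1 and its partner at 122929148 to 122929193 had 14. Further upstream, tallies in replicate 1 and replicate 2 were 7 and 6 at 122930268 to 122930303, 11 and 10 at 122930340 to 122930407, and 7 and 8 at 122930617 to 122930649. Tallies at the same site thus differed in both directions in this gene. The strongest peaks found in 1 library alone were at 122929516 to 122929534 and 122931331 to 122931352 in replicate 1, with a tally of 6 each, and at 122931851 to 122931924 in replicate 2, with a tally of 10, which was the 5'-most peak of the gene.

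Some HSPA8 peaks cannot be given to HSPA8 alone. In replicate 1, peaks of ENSG00000200879.1 and ENSG00000207118.1 lay on the same strand under HSPA8 peaks, and the ENSG00000207118.1 peak at 122929632 to 122929661 had the same tally, 16, as the HSPA8 peak around it. In replicate 2, peaks of ENSG00000207118.1 and ENSG00000202252.1 did so, with tallies of 9 and 8 beside HSPA8 tallies of 10 and 8. The HSPA8 peak at 122928791 to 122928841, with a tally of 13, was shared only through a replicate 2 peak of tally 4 listed under another ID. RefSeq places 3 small nucleolar RNA genes, SNORD14C, SNORD14D and SNORD14E, inside HSPA8, and guides of this class are processed from introns. The files do not pair IDs with names, so whether these IDs are those genes was not tested. RefSeq also places SNORD63 and SNORD63B inside HSPA9, SNORA105B inside HSPD1 and MIR639 inside DNAJB1. In replicate 1 the HSPA9 span held 1 peak of another ID on the same strand, ENSG00000206989, which overlapped no HSPA9 peak.

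HSPA9 encodes mortalin, the HSP70 of the mitochondrial matrix, which pulls proteins through the import channel and takes part in iron-sulphur cluster assembly. Its 4 shared sites lay together within 0.542 kb at the 3' end of a span of 15.7 kb, at 137891060 to 137906754 on the minus strand of chromosome 5 (ENSG00000113013.8). The site at 137891523 to 137891601 had a tally of 35, the highest in the 8 genes in either library, and a deposited p of 2.74e-24. Its partner at 137891537 to 137891596 had a tally of 20 and a p of 1.04e-13, the highest tally of the 8 genes in replicate 2. The short inner intervals of the pair had the same centre. These peaks ranked in the strongest 0.351% of replicate 1 and the strongest 1.37% of replicate 2.

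The other shared HSPA9 sites flanked it. Tallies were 14 in replicate 1 and 7 in replicate 2 at 137891060 to 137891115, 12 and 8 at 137891138 to 137891187, and 14 and 4 at 137891448 to 137891522. At all 4 sites the replicate 1 tally was the higher. Peaks within 1 kb of the 3' end of the span held 94.9% of the HSPA9 tally in replicate 1, from 4 of 5 peaks, and 68.3% in replicate 2, from 5 of 11 peaks. The remaining replicate 2 peaks were weak, with tallies of 3 or 4 at 2.5 to 15.7 kb from the 3' end. Replicate 1 listed 1 peak outside that 1 kb, at 1.41 kb, with a tally of 4. The highest tally of an unshared HSPA9 peak was 4 in each library, equal to the weakest replicate 2 peak at a shared site. One such replicate 2 peak, at 137891768 to 137891785, lay 166 nt from the nearest replicate 1 peak.

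HSPA4 and HSPH1 belong to the HSP110 class, whose members act as nucleotide exchange factors for cytosolic HSP70. Both had 4 shared sites spread over a long span. The share of shared peaks was 40% for HSPA4 and 28.6% for HSPH1 in replicate 1, against 80% for HSPA8 and for HSPA9. In replicate 2 the order was different, with 44.4% for HSPA4 and 71.4% for HSPH1, against 61.5% for HSPA8 and 36.4% for HSPA9, and the intervals overlapped in both libraries. HSPA4 peaks lay over 35.4 kb, from 132406124 to 132441489 on the plus strand of chromosome 5 (ENSG00000170606.9). It had 10 peaks with a summed tally of 59 in replicate 1 and 9 peaks with 37 in replicate 2, and 4 in each were shared. Its strongest site, at 132409708 to 132409819 near the 5' end, had a tally of 14 in replicate 1 and 5 in replicate 2. A site at 132440827 to 132440902 near the 3' end had 9 and 3. Midway, a site at 132422478 to 132422530 had 4 and 6, and a site at 132431790 to 132431861 had 5 and 3. HSPA4 thus had its shared sites at both ends and in the middle of the span, each with a low tally in at least 1 library. None of its peaks were shared when the overlap had to cover 50% of both peaks. The strongest unshared peaks were at 132412346 to 132412385 in replicate 1 with a tally of 8, and at 132406124 to 132406189 in replicate 2 with a tally of 6.

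HSPH1 (HSP105) had more peaks and higher tallies in replicate 1. It had 14 peaks with a summed tally of 84 in replicate 1 and 7 with 36 in replicate 2, over 25.1 kb from 31710822 to 31735871 on the minus strand of chromosome 13 (ENSG00000120694.15). As a share of each library's summed tally this was a log2 ratio, replicate 1 over replicate 2, of 1.00 (95% exact binomial interval 0.42 to 1.61, counting error only), the furthest from 0 among the genes with shared peaks. In shares of all peaks the log2 ratio was 0.96 (-0.44 to 2.51), and that of HSPA9 was further from 0, at -1.18 (-3.05 to 0.47). With overlap of 50% of both peaks required, HSPH1 kept 1 shared peak in each library. Its strongest site was nonetheless alike in both: a peak at 31724198 to 31724275 had a tally of 12, and its partner at 31724186 to 31724275, ending at the same base, had 11. This site lay in the interior of the span, over 13 kb from its 3' end. At shared positions the summed tallies of HSPH1 were 33 in replicate 1 and 29 in replicate 2, and the gap between the libraries lay in the other peaks: 10 of the 14 in replicate 1 were not shared, with tallies of 3 to 10. The strongest of these was at 31712623 to 31712695, with a tally of 10 and a deposited p of 6.18e-07, and the nearest HSPH1 peak of replicate 2 was 1070 nt away. In replicate 2 the unshared peaks had tallies of 3 and 4, the stronger at 31735823 to 31735871. The other shared sites had tallies of 8 in replicate 1 and 3 in replicate 2 at 31728827 to 31728889, 6 and 9 at 31711427 to 31711478, and 7 against touching peaks of 3 and 3 at 31711032 to 31711069.

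DNAJA1 is an HSP40 protein that brings clients to cytosolic HSP70. Its sites formed an upstream pair and a 3' group within a span of 12.9 kb, from 33026475 to 33039395 on the plus strand of chromosome 9 (ENSG00000086061.11). It had 6 peaks with a summed tally of 63 in replicate 1 and 9 with 67 in replicate 2, and 5 in each were shared. The upstream pair recurred almost base for base. A peak of tally 9 at 33029973 to 33029988 in replicate 1 had identical bounds in replicate 2, with a tally of 8. Nearby, a peak at 33030437 to 33030484 had a tally of 18, and its partner began at the same base, ended at 33030490 and had 15.

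The 3' group of DNAJA1 was less even. At 33039013 to 33039060 the tally was 17 in replicate 1 and 7 in replicate 2, at 33039293 to 33039332 it was 9 and 3, and at 33039204 to 33039213 it was 5 and 4. Between both groups, replicate 2 alone listed a peak of tally 12 at 33034272 to 33034329, with a deposited p of 2.35e-09. This was the strongest unshared peak of the 8 genes, and the nearest DNAJA1 peak of replicate 1 was 3787 nt away. Replicate 1 had 1 unshared peak, of tally 5, at 33026475 to 33026483, which set the 5' end of the span. The summed tallies of DNAJA1 were close, with a log2 ratio of shares of -0.31 (-0.83 to 0.21), while the libraries placed them in part at different sites.

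DNAJB1, the stress-inducible HSP40 protein, was the gene of the set with no overlapping peaks. With peaks extended by 100 nt, 2 of its 2 peaks in replicate 1 and 3 of its 4 in replicate 2 were shared. Replicate 1 listed 2 peaks with a summed tally of 7 and replicate 2 listed 4 with 22, over 1.22 kb from 14625756 to 14626976 on the minus strand of chromosome 19 (ENSG00000132002.3). The replicate 1 peaks had tallies of 3 at 14625909 to 14625950 and 4 at 14626940 to 14626976. The replicate 2 peaks had tallies of 6, 5, 5 and 6, the strongest by p being at 14626710 to 14626760. The nearest peaks of the libraries were 36 nt apart at one end of the span and 179 nt apart at the other. With so few peaks the exact interval of the shared share reached 84.2% in replicate 1 and 60.2% in replicate 2, so recurrence at this gene was not measurable at this number of peaks. The log2 ratio of shares was -1.87 (-3.34 to -0.59), lower in replicate 1. All 4 peaks of replicate 2 and 1 of 2 in replicate 1 lay within 1 kb of the 3' end of the span.

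HSPD1 and HSPE1 encode HSP60 and HSP10, the barrel and the lid of the mitochondrial chaperonin. They are neighbours on chromosome 2 in opposite directions, and their nearest peaks lay 3.01 kb apart. HSPD1 peaks covered 10.8 kb, from 198351334 to 198362110 on the minus strand (ENSG00000144381.12), and HSPE1 peaks 2.94 kb, from 198365124 to 198368064 on the plus strand (ENSG00000115541.6).

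HSPD1 had 12 peaks with a summed tally of 143 in replicate 1 and 13 with 84 in replicate 2. Shared peaks numbered 7 and 8, and held 80.4% and 73.8% of those tallies. The strongest sites stood at the 3' end and far upstream. At the 3' end of the span, a peak at 198351334 to 198351415 had a tally of 31 and a deposited p of 2.08e-18, and its partner at 198351342 to 198351402 had a tally of 16 and a p of 1.03e-09. About 8 kb upstream, a peak at 198359398 to 198359468 had a tally of 27 and a p of 1.49e-20, and its partner at 198359400 to 198359460 had 13 and 8.00e-10. The inner intervals of these pairs were centred 1 and 2 nt apart. A site at 198352590 to 198352645 ran the other way, with a tally of 12 in replicate 1 and 16 in replicate 2. These 3 sites ranked within the strongest 10% of both lists.

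Other HSPD1 sites were strong in replicate 1 and near the lowest tally in replicate 2. The peak at 198353726 to 198353801 had 17, against separate peaks of 3 and 3 in replicate 2, one of which began at the same base. The peak at 198362021 to 198362109, at the 5' end of the span, had 16, against 4. Weaker sites had 7 and 3 at 198353194 to 198353215 and 5 and 4 at 198356516 to 198356540. The strongest unshared peaks had a tally of 7 in each library, at 198358133 to 198358168 in replicate 1 and 198361934 to 198361979 in replicate 2, and lay 66 and 41 nt from the nearest peak of the other library. The log2 ratio of tally shares for HSPD1 was 0.55 (0.15 to 0.95), while the log2 ratio of shares of all peaks was -0.15 (-1.42 to 1.10), so replicate 1 had higher tallies from a similar number of peaks.

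HSPE1 had 5 peaks with a summed tally of 53 in replicate 1, all of them shared, and 6 with 43 in replicate 2, 4 of them shared. The log2 ratio of tally shares was 0.08 (-0.53 to 0.70). Its strongest site, at 198367933 to 198368004 near the 3' end, had a tally of 22 in replicate 1, and its partner at 198367934 to 198368003 had 14. Just downstream, the peak at 198368021 to 198368064 had 8 and its partner at 198368018 to 198368061 had 7. At the 5' end the peak at 198365124 to 198365164 had 9, and its partner at 198365127 to 198365160 had 5. Between these, touching peaks of 6 and 8 in replicate 1, from 198365798 to 198365885, met a single peak of 10 in replicate 2 that began at the same base. The unshared peaks of replicate 2 were weak, the stronger a peak of tally 4 at 198367765 to 198367802. In both libraries the 2 sites nearest the 3' end were also listed under ENSG00000270757.1, with the same tallies at narrower bounds, so those peaks cannot be given to HSPE1 alone. RefSeq lists a readthrough gene, HSPE1-MOB4, that starts with HSPE1, and whether the ID is that gene was not tested.

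**Figure D3:**
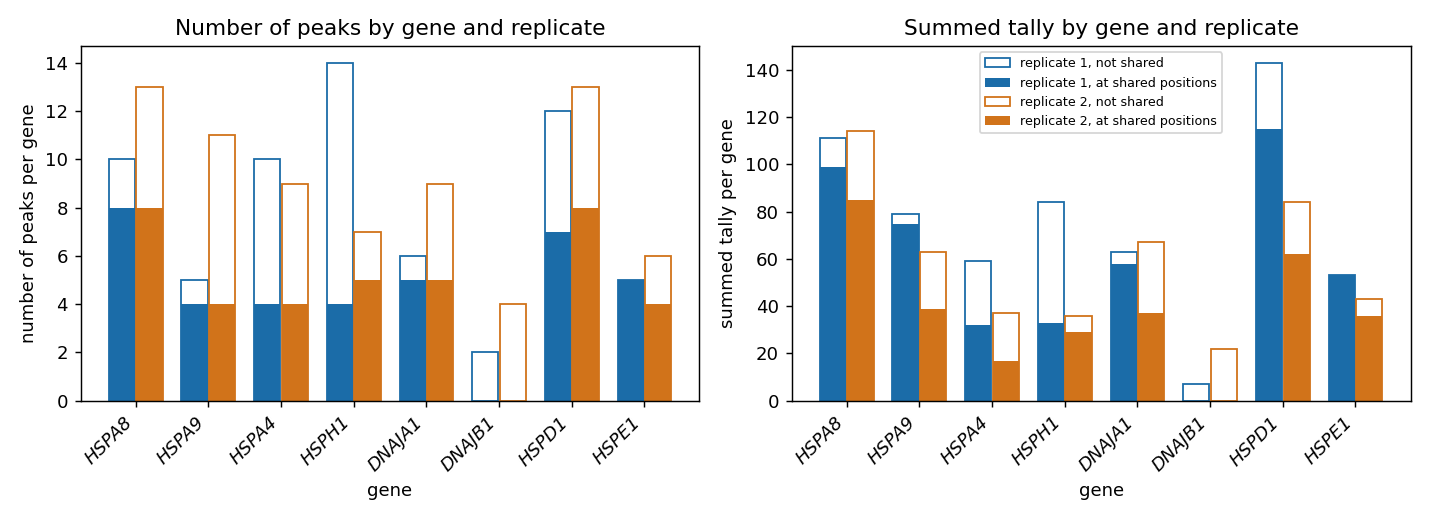
Number of peaks (left) and summed tally (right) of each gene in replicate 1 (blue) and replicate 2 (orange); the filled part of a bar is at shared positions and the open part is not. HSPH1 shows the widest gap in peaks, 14 and 7, and HSPD1 the widest in summed tally, 143 and 84.

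Over the set, overlapping pairs were centred about as close together as those of all gene IDs. Only overlapping peaks entered, which by itself limits how far apart the centres can lie. The 39 overlapping pairs under one gene ID had inner intervals centred a median of 6 nt apart, and 25 pairs (64.1%) were within 10 nt, against a median of 7 nt and 65.2% over 9528 such pairs of all gene IDs. A start or an end fell on the same base in 7 pairs (17.9%), against 13.6% over all pairs. Replicate 1 had the higher tally in 31 pairs (79.5%), replicate 2 in 7, and 1 pair was equal. A peak that the other library divided entered once for each part, so the 39 pairs lay on 35 sites. The values over pairs depend on such division. Over all 9528 pairs, replicate 1 was higher in 56.2%, replicate 2 in 29.2%, and 1397 pairs were equal. These shares were not matched for tally, so they do not show a trait of chaperone genes. The median log2 ratio of tallies was 0.68 in the chaperone pairs and 0.26 over all pairs. Across the chaperone pairs, Spearman's rho between the tallies was 0.47 and Pearson's r of their log2 values was 0.50, against 0.60 and 0.67 over all pairs, a description over pairs that share genes and libraries. The inner interval touched an edge of the peak in 4 of 64 chaperone peaks of replicate 1 and 9 of 72 of replicate 2, against 6.86% and 10.8% of all peaks.

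**Figure D4:**
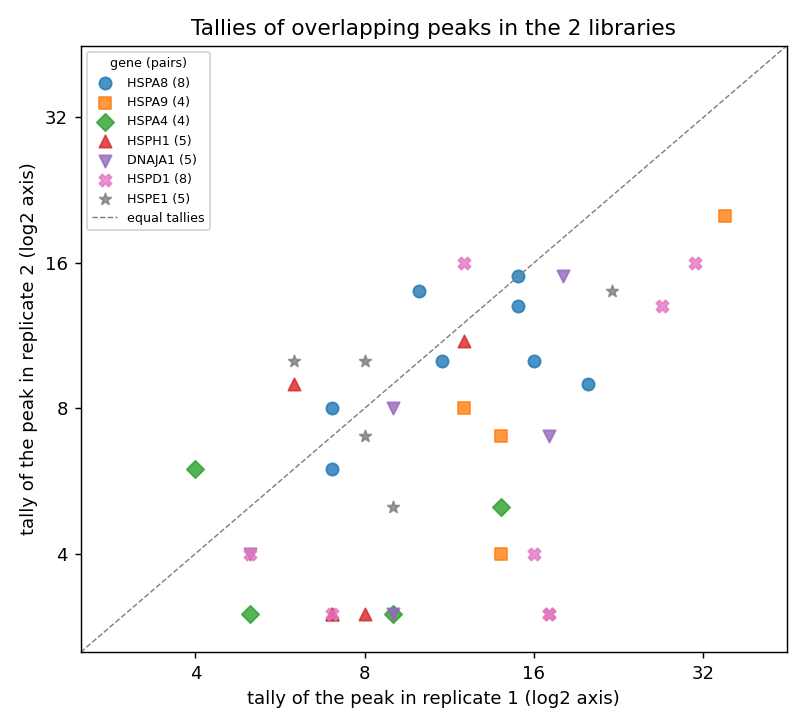
Tally in replicate 1 (horizontal) and replicate 2 (vertical), both on log2 axes, for the 39 overlapping pairs, by gene; the dashed line marks equal tallies, and pairs with the same values lie on top of each other. Most points, 31 of 39, lie below the line, and the HSPA9 and HSPD1 sites reach furthest right.

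Summed tallies of whole genes were compared as shares of each library's total, unlike the raw tallies of the pairs above. In raw numbers the 8 genes together held 599 in replicate 1 and 466 in replicate 2. The log2 ratio of tally shares, replicate 1 over replicate 2, was above 0 in 5 genes and below 0 in 3, with a median of 0.09, against -0.03 over the 979 gene IDs with a summed tally of 30 or more in both libraries (interquartile range -0.30 to 0.28). HSPH1, HSPD1 and DNAJB1 had intervals that left out 0, and those of the other 5 genes included it. How many of all gene IDs had an interval without 0 was not computed. Over the 979 gene IDs the 5th and 95th percentiles of the ratio were -0.86 and 0.64. HSPD1, at 0.55, lay between them, and HSPH1, at 1.00, lay above. DNAJB1, with sums of 7 and 22, is not among the 979. Which chaperone genes had intervals without 0 depended on the peaks counted. With peaks of tally 5 or more alone, the ratio was 0.68 (0.08 to 1.30) for HSPA9 and 0.85 (0.0011 to 1.76) for HSPA4, and DNAJB1 gave no value. In shares of all peaks the intervals of all 8 genes included 0. For HSPA8 the ratio was -0.26 (-0.65 to 0.13), for HSPA9 it was 0.11 (-0.39 to 0.61), and for HSPA4 it was 0.45 (-0.16 to 1.09). The intervals cover counting error only, and with 1 library on each side they do not measure the spread between cultures.

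Relative position was 0 at the 5' end and 1 at the 3' end of the span of all peaks of a gene. The median over its shared peaks was 0.98 for HSPA9, 0.97 for HSPH1 and 0.97 for DNAJA1. In HSPH1 this median rests on how 1 site was divided, as 2 of its 4 shared sites lay at 0.46 and 0.28 and the median was 0.72 over replicate 1 peaks alone. In DNAJA1, 2 of 5 shared sites, among them the strongest, lay at 0.27 and 0.31. The median was 0.77 for HSPD1, 0.67 for HSPA8, 0.60 for HSPA4 and 0.25 for HSPE1, whose sites lie at both ends of a short span and which had 0.61 over replicate 2 peaks alone. With the span set by shared peaks alone, HSPA9 had 0.52. The median over these 7 genes was 0.77, against 0.80 over 1242 gene IDs with 4 or more shared peaks and a span in the same range (interquartile range 0.51 to 0.94). Spans are those of the peaks and include introns, and whether a site lies in an exon, an intron or an untranslated region is not reported here.

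Peaks seen in 1 library lay at widely different distances from those of the other. The 27 unshared peaks of replicate 1 had a median tally of 5 and a highest of 10, and the 34 of replicate 2 a median of 4 and a highest of 12. Of these, 7 and 11 lay within 100 nt of a peak of the same gene in the other library, while 9 and 12 lay more than 1 kb from any. The span of a gene limits such distances, and they were not computed for unshared peaks of other genes. Whether the chaperone genes differ from the rest of the lists in this was therefore not tested. Chaperone peaks with a tally of 10 or more were shared in 20 of 21 cases in replicate 1 and 13 of 15 in replicate 2, or 95.2% and 86.7%, against 87.1% and 89.4% of all peaks of that strength. With tallies of 3 to 5 they were shared in 4 of 21 and 15 of 39 cases, or 19.05% and 38.5%, against 19.7% and 24.6% of all such peaks.

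Several of these genes have named pseudogenes, and like copies elsewhere in the genome can divide or remove reads when they are aligned. How alike the sequences are was not measured. RefSeq names 20 pseudogenes of HSPA8, 22 of HSPD1, 28 of HSPE1, 6 of DNAJA1, 2 of HSPA9 and 2 of DNAJB1, and 0 of HSPA4 and HSPH1 by the same search. The sources used here do not give how reads that fit several places were treated, so the tallies of HSPA8, HSPD1 and HSPE1 are uncertain on this point, and its part in the results was not tested.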

How the data were processed

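Both libraries were anti-MSI2 CLIP-seq libraries of NB4 cells, 1 group with 2 replicates. Genome build hg19 and the tools STAR 2.3.0e, Bowtie 1.0.0 and cutadapt are named per the submitters' processing notes. The deposited lists, 1 per library, carry poly(A) trimming, adapter trimming and duplicate removal in their names. The sources used here do not give the peak caller. Each peak's p-value is as the authors deposited it, was under 0.05 throughout, and served only to describe and rank peaks within a list. The members and lists were chosen with earlier results of these data known. Named peaks were every shared pair and the strongest unshared peak by tally of each gene and library. Starts are printed 1-based. Computed here were overlaps, exact (Clopper-Pearson) binomial intervals and log2 ratios of tally shares, with SciPy 1.17.1, pandas 2.3.3 and NumPy 2.4.6 in Python 3.11.15, and figures were drawn with matplotlib 3.10.9. Both the overlap step and the ratio intervals were tested on simulated data. No p-value was computed. A wider list of chaperone genes and a motif search had been planned and were not run, since no table used here pairs Ensembl IDs with names and no genome of the files' build was used. The count at like tallies and the nearest distances were chosen after seeing the data. RefSeq names come from GRCh38.p14. Its own positions show which genes lie inside a chaperone gene, and no peak was placed on its coordinates.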

Additional observations from a re-analysis of the deposited data

How the results depend on the processing

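The files give no depth, and with 2 lists every value rests on few peaks. A reciprocal overlap of 50% lowered the shared chaperone peaks to 21 in each library, or 32.8% in replicate 1 and 29.2% in replicate 2, against 26.8% and 27.5% over all peaks. Extension by 100 nt raised the shares to 76.6% and 79.2%, against 48.5% and 49.9% over all peaks. The strongest 10% of each list left 10 and 11 shared peaks, or 55.6% and 68.8%, against 55.1% and 57.1% over all peaks. The mean number of chaperone peaks, 68, fell to 47.5 with the stronger 50%, 44 with a tally of 5 or more and 60.5 with peaks merged within 50 nt, by construction. For the set as a whole the log2 ratio of tally shares was 0.14 (-0.03 to 0.32), and of peak shares -0.21 (-0.72 to 0.30). In tally shares it was 0.23 (0.04 to 0.43) with the stronger 50% and 0.25 (0.05 to 0.44) with a tally of 5 or more. These last intervals left out 0, and all of them cover counting error only. For HSPD1 the ratio turned to -0.15 in peak shares. The median relative position was 0.56 with the span set by shared peaks alone, and 0.72 to 0.78 without 1 replicate. Without 1 replicate the summed tally was 466 to 599 and the number of peaks 64 to 72. Of 341 recomputed values, 255 stayed within a margin that differed by result. Many of these could not leave it. The value of 1 library always lies within 1 standard deviation of the mean of 2, and merging peaks cannot change summed tallies. The count is therefore not a measure of robustness. Sharing needs both lists, so it has no value without 1 replicate. DNAJB1 gave no ratio in the stronger 50% or with a tally of 5 or more. No paired analysis was possible because there is 1 group.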

Other observations

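The running number in a peak's name followed the order of positions in each gene, and some numbers were not listed. Over all gene IDs the numbers skipped before the last listed peak were 8.77% in replicate 1 and 9.52% in replicate 2. In the chaperone genes 3 were skipped in replicate 1, 2 of them in HSPA4 and 1 in HSPH1, and 5 in replicate 2, 3 of them in HSPH1, 1 in DNAJB1 and 1 in HSPE1. The sources used here do not give whether these stand for regions left out by a threshold.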
